A study of Mus musculus with 4 samples.

Results

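The Cyp2d subfamily of cytochrome P450 genes was described in the livers of 4 mice. Its members were taken by name as Cyp2d9, Cyp2d10, Cyp2d11, Cyp2d12, Cyp2d13, Cyp2d22, Cyp2d26, Cyp2d34 and Cyp2d40. Of these 9 genes, 8 were matched to an identifier among the 46603 Ensembl genes of the count table, 7 had a count in a library, and 6 passed the filter on low counts and were tested. No identifier of the table was matched to Cyp2d13, which is not analysed here. RNA-seq counts of total liver RNA were compared between mice 1 and 2, labelled Control, and mice 3 and 4, labelled HuR hKO. All 4 mice were male HuR flox/flox mice on the C57BL/6 J background, and their age was not given in the sources used here. The paper, in contrast, states that both sexes were used across its in vivo work, and the sample titles give no sex. Hepatocyte-specific knockout of HuR, an RNA-binding protein, was made by a tail-vein injection of an AAV8 vector that expresses Cre from the thyroxine-binding globulin promoter (AAV8-TBGP-Cre), and control mice received AAV8-TBGP-GFP. Both groups received a Western diet and sugar water (WDSW) over 4 weeks, with 42% of kcal from fat, 0.1% cholesterol, and a drinking solution of 23.1 g/L fructose and 18.9 g/L glucose, so every mouse was on the diet that induces fatty liver. Cre reaches hepatocytes through this promoter, and the other cells of the liver keep HuR.

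Cytochrome P450 enzymes are heme proteins of the endoplasmic reticulum that insert an oxygen atom into steroids, drugs and other lipophilic compounds, with electrons passed to them by cytochrome P450 reductase. Human liver has a single working gene of this subfamily, CYP2D6, which clears many prescribed drugs, whereas mice carry a cluster of Cyp2d genes that arose by duplication. In mouse liver Cyp2d9, a steroid 16-alpha-hydroxylase, is known as a male-predominant gene under the control of pulsed growth hormone, and Cyp2d22 is often named as the mouse counterpart of CYP2D6.

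The libraries held between 13032095 and 19715577 counts, and mouse 4 was the deepest, at 1.51 times the shallowest. Elavl1, the gene that encodes HuR, was read 377 and 347 times in Control mice 1 and 2, and 541 and 648 times in mice 3 and 4. Its level was 27.1 ± 1.74 CPM (SD, n = 2) and 36.1 ± 2.36 CPM (SD, n = 2), and its log2 fold change of 0.41 ± 0.135 (SE) had an adjusted p-value of 0.545 in edgeR's quasi-likelihood test. The targeted gene thus had no lower level in the pair labelled HuR hKO, and every direction given here is that of the labels. The paper itself reports reduced HuR mRNA and protein in livers of its knockout mice, and HuR loss in hepatocytes by immunofluorescence. CPM are counts per 1000000 counts of a library over the 13001 genes tested, a size that was scaled with TMM factors. Log2 fold changes are HuR hKO minus Control. The counts of every pair of libraries differed by more than sampling noise (chi-square divided by its degrees of freedom, 23.1 to 36.5).

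The Cyp2d genes took between 0.412% and 0.480% of the counts of a library. Their summed level was 4308 and 4520 CPM in Control mice 1 and 2, and 3965 and 5022 CPM in mice 3 and 4. The 2 libraries labelled HuR hKO lay on either side of the Control pair, and the means were 4414 ± 150 CPM (SD, n = 2) and 4493 ± 747 CPM (SD, n = 2), a ratio of 1.02. In bulk liver RNA, fewer cells of a type and less RNA per cell cannot be told apart. The level of the subfamily as a whole therefore differed by less than the spread between mice.

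Levels of different genes were compared per kilobase of the longest protein-coding transcript of each gene in GENCODE M21. Cyp2d9 stood first in every library, with 936 to 1173 CPM per kb. Cyp2d26 came next with 604 to 785 CPM per kb and then Cyp2d10 with 520 to 667 CPM per kb. The ranges of these neighbours overlapped, but Cyp2d26 was above Cyp2d10 in 4 of 4 libraries. Cyp2d22 had 100.02 and 107 CPM per kb in the Control pair and 142 and 173 CPM per kb in the pair labelled HuR hKO. Cyp2d40 had 103 and 151 CPM per kb in the Control mice and 73.4 and 83.1 CPM per kb in the pair labelled HuR hKO. Cyp2d40 therefore stood above Cyp2d22 in both Control libraries and below it in both libraries labelled HuR hKO, although in mouse 1 the gap was small. This order rests on the transcript lengths, 2769 bases for Cyp2d22 and 1163 bases for Cyp2d40, whose annotated model has 6 exons and 1014 coding bases against 9 or 10 exons and at least 1500 coding bases in the other members. Cyp2d12 and Cyp2d11 were far lower, at no more than 2.50 and 0.527 CPM per kb, and Cyp2d34 had no count.

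**Figure D1:**
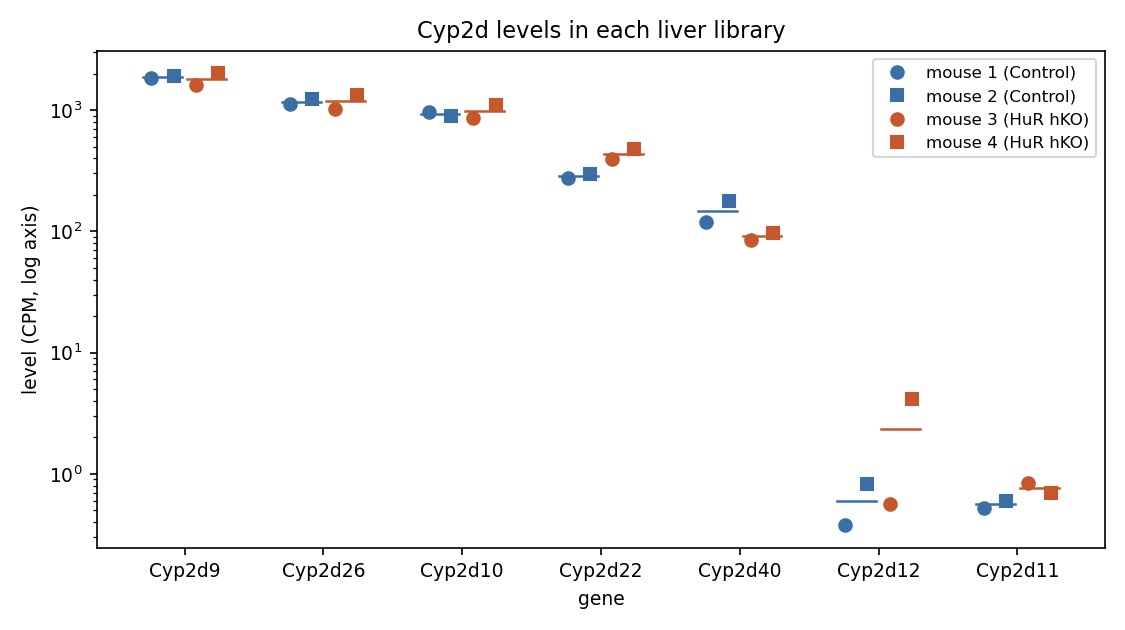
The level of each Cyp2d gene with a count in CPM (log axis), 1 point a mouse, with a line at each group's mean. Cyp2d9, Cyp2d26 and Cyp2d10 lie between 857 and 2008 CPM with overlapping groups, the Cyp2d22 points of mice 3 and 4 lie above those of mice 1 and 2, and the Cyp2d40 points lie below them. Cyp2d34, at 0 counts in every library, cannot be drawn on this axis.

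No Cyp2d gene had an adjusted p-value under 0.05 in edgeR's quasi-likelihood test (0 of 6 tested), against 0.0231% of the 13001 genes tested. At an unadjusted p-value under 0.05, 2 of the 6 were higher in the libraries labelled HuR hKO (Cyp2d22 and Cyp2d12), against 4.04% of all genes tested, and 1 was lower (Cyp2d40), against 3.39%. At the threshold that the study used, a fold change of at least 1.8 with an unadjusted p-value under 0.05, 1 of the 6 was higher (Cyp2d12), against 1.21% of all genes tested, and 0 were lower, against 0.915%. The groups did not overlap for Cyp2d22, which was higher, against 19.3% of all genes tested, and for Cyp2d40, which was lower, against 18.8%. Over the same 6 genes, the DESeq2 Wald test had 1 adjusted p-value under 0.05, that of Cyp2d22, and limma-voom had 0. The median log2 fold change of the 6 genes was 0.04, and that of all genes tested was 0.002. For 2 mice against 2, the smallest p-value of an exact permutation test (two-sided) is 0.333, and edgeR's p-values therefore draw on a spread shared between genes. The labels number the mice and say no more of them. The p-values set each difference against a spread between these mice that is estimated in part over all genes.

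**Figure D2:**
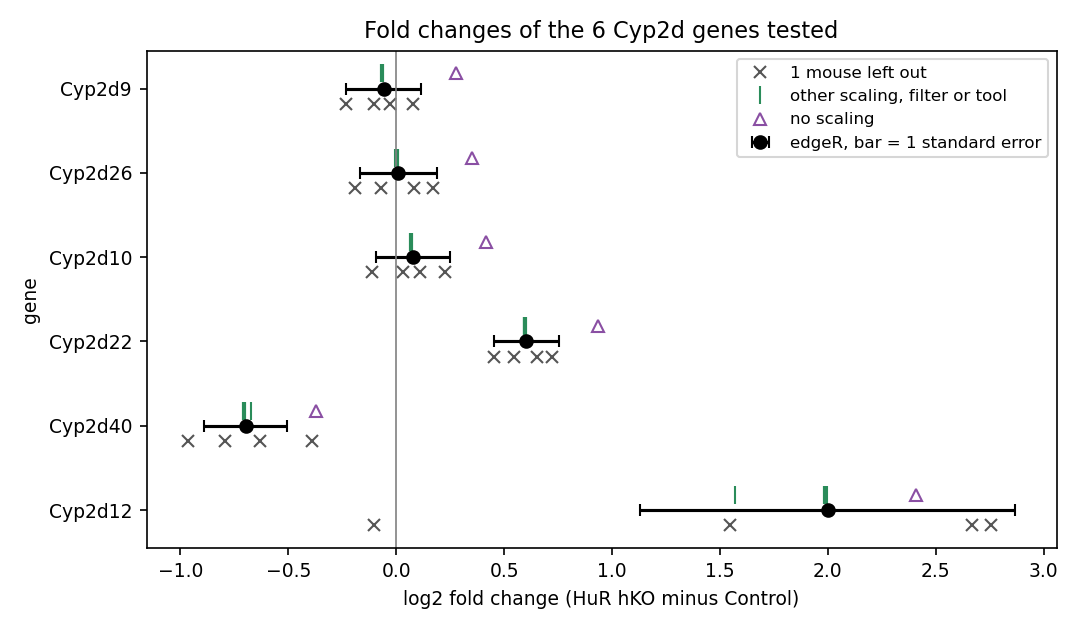
The log2 fold change (HuR hKO minus Control) of the 6 Cyp2d genes tested, with a bar of 1 standard error, beside the values with 1 mouse left out and under other processing. Cyp2d22 stays above 0 and Cyp2d40 below 0 at every point drawn, Cyp2d9, Cyp2d26 and Cyp2d10 lie on both sides of 0, and Cyp2d12 drops to -0.10 without mouse 4.

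The 3 most abundant members showed no difference beyond the spread between mice. Cyp2d9 (ENSMUSG00000068086, chr15:82433437-82456845, plus strand, GRCm38) had 1838 and 1920 CPM in Control mice 1 and 2, and 1602 and 2008 CPM in the pair labelled HuR hKO. The group means were 1879 ± 57.8 CPM (SD, n = 2) and 1805 ± 288 CPM (SD, n = 2), and mice 3 and 4 held its lowest and its highest value. Its log2 fold change was -0.06 ± 0.175 (SE), and edgeR's adjusted p-value was 0.963.

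Cyp2d26 (ENSMUSG00000022445, chr15:82790101-82794294, minus strand) had 1115 and 1229 CPM in the Control pair, and 1027 and 1335 CPM in the pair labelled HuR hKO. For Cyp2d26 the log2 fold change was 0.01 ± 0.178 (SE), and edgeR's adjusted p-value was 0.994. Cyp2d10 (ENSMUSG00000094806, chr15:82402846-82407195, minus strand) had 957 and 898 CPM in Control mice 1 and 2, and 857 and 1099 CPM in the pair labelled HuR hKO. For Cyp2d10 the log2 fold change was 0.08 ± 0.171 (SE), and edgeR's adjusted p-value was 0.946. In all 3 genes mouse 3 was the lowest library and mouse 4 the highest, so the pair labelled HuR hKO enclosed the Control pair. Without mouse 3 the log2 fold change of Cyp2d9 was 0.08, and without mouse 4 those of Cyp2d10 and Cyp2d26 were -0.11 and -0.19.

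Cyp2d22 had a higher level in both libraries labelled HuR hKO than in either Control library, without passing the adjusted threshold. The gene (ENSMUSG00000061740, chr15:82370527-82380260, minus strand) had 3680 and 3958 counts in mice 1 and 2, and 5618 and 9000 counts in mice 3 and 4. On the CPM scale it had 277 and 295.5 CPM in the Control pair, and 392 and 478 CPM in the pair labelled HuR hKO, so that the lowest of the second pair was above the highest of the first. The means were 286 ± 13.1 CPM (SD, n = 2) and 435 ± 60.7 CPM (SD, n = 2), a fold change of 1.52. On the log2 scale the change was 0.60 ± 0.152 (SE), and the unadjusted p-value of edgeR's test was 0.00390, the 136th smallest of 13001. Over all genes tested edgeR's adjusted p-value was 0.372, which did not pass the threshold. The adjusted p ranged from 0.0453 with the DESeq2 Wald test to 0.999 without mouse 4 over the 11 alternatives. Leaving out each mouse kept the log2 fold change between 0.45 and 0.72, and the unadjusted p-value was at most 0.0336 in every alternative.

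Cyp2d40 had a lower level in both libraries labelled HuR hKO than in either Control library, again without passing the adjusted threshold. The gene (ENSMUSG00000068083, chr15:82759833-82764183, minus strand) had 1585 and 2359 counts in mice 1 and 2, and 1224 and 1821 counts in mice 3 and 4. On the CPM scale it had 119 and 176 CPM in the Control mice, and 85.4 and 96.7 CPM in the pair labelled HuR hKO, and the groups did not overlap. The means were 148 ± 40.2 CPM (SD, n = 2) and 91.0 ± 7.98 CPM (SD, n = 2), 1.62-fold lower. On the log2 scale the change was -0.70 ± 0.191 (SE), and the unadjusted p-value was 0.00627 in edgeR's test, the 190th smallest of 13001. Its adjusted p-value in edgeR's test was 0.427, with a range from 0.0386 without a filter on low counts to 0.903 without mouse 4 over the alternatives. The size of the difference rested in part on mouse 2, since the log2 fold change was -0.39 without it and -0.96 without mouse 1. With no scaling for library size, the raw counts of the groups overlapped and the log2 fold change was -0.37.

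Shares and count ratios within a library do not depend on the scaling for library size. Cyp2d22 took 6.43% and 6.54% of the summed Cyp2d counts in mice 1 and 2, and 9.89% and 9.51% in mice 3 and 4. Cyp2d40 took 2.77% and 3.90% in mice 1 and 2, and 2.15% and 1.93% in mice 3 and 4. Cyp2d9 took 42.7% and 42.5%, and 40.4% and 39.99%. For these 3 genes the groups did not overlap. Divided by the same summed Cyp2d counts, 13.5% of all genes tested were higher and 12.7% lower without overlap. For Cyp2d22 and Cyp2d9 the gap between the groups was wider than that between mice of a group, and shares of 1 sum are not independent of each other. The shares of Cyp2d10, between 19.9% and 22.2%, and of Cyp2d26, between 25.9% and 27.2%, overlapped between the groups, as did those of Cyp2d12. The share of Cyp2d11, a gene of few counts that was not tested, did not overlap. It was 0.0122% and 0.0132% in mice 1 and 2, and 0.0211% and 0.0137% in mice 3 and 4.

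**Figure D3:**
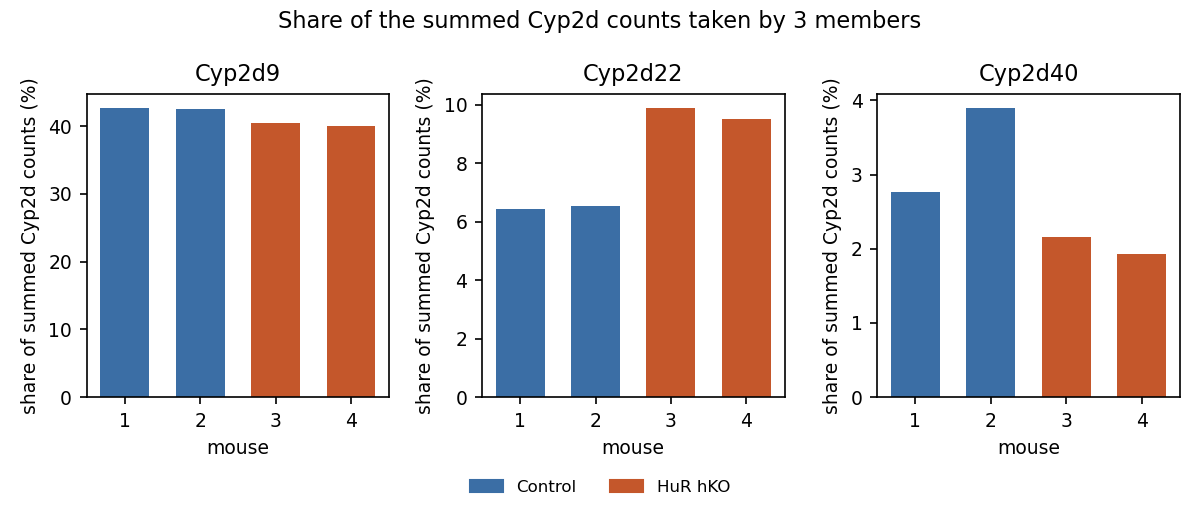
The share (%) of the summed Cyp2d counts of a library taken by Cyp2d9, Cyp2d22 and Cyp2d40, 1 bar a mouse, each panel with its own axis from 0. The Cyp2d22 bars of mice 3 and 4 reach 9.89% and 9.51% against 6.43% and 6.54% in mice 1 and 2, and the Cyp2d40 bars of mice 3 and 4 are below both Control bars.

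Set against the most abundant member, Cyp2d22 had 0.151 and 0.154 counts for each Cyp2d9 count in the Control mice, and 0.245 and 0.238 in the pair labelled HuR hKO. Cyp2d40 had 0.0649 and 0.0917 counts for each Cyp2d9 count in the Control mice, and 0.0533 and 0.0481 in the pair labelled HuR hKO. The ratio of Cyp2d22 to Cyp2d40 counts was 2.32 and 1.68 in the Control mice, and 4.59 and 4.94 in the pair labelled HuR hKO. The means of this ratio were 2.00 ± 0.455 (SD, n = 2) and 4.77 ± 0.249 (SD, n = 2). The pair was chosen after its values were seen, and the ratio is given as a description without a test. Cyp2d10 had 0.468 to 0.521 counts for each Cyp2d9 count in the Control mice and 0.535 to 0.547 in the others, and Cyp2d26 had 0.607 to 0.640 and 0.641 to 0.665. The groups did not overlap in either ratio, but the nearest libraries of Cyp2d26, mice 2 and 3, were at 0.640 and 0.641. Divided by Cyp2d9 counts, 21.2% of all genes tested were higher and 8.21% lower without overlap.

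Cyp2d12 passed the study's threshold through a single library. The gene (ENSMUSG00000096852, chr15:82555072-82560403, plus strand) had 5 and 11 counts in mice 1 and 2, 8 counts in mouse 3 and 78 counts in mouse 4. The 95% exact Poisson interval of the count was 61.7 to 97.35 in mouse 4 and 3.45 to 15.8 in mouse 3, and such intervals cover counting error only. The levels were 0.376 and 0.821 CPM in the Control mice, and 0.558 and 4.14 CPM in the pair labelled HuR hKO, so mouse 3 lay between the Control mice. The fitted log2 fold change was 2.00 ± 0.869 (SE), and the unadjusted p-value was 0.0498 in edgeR's test. Its adjusted p-value in edgeR's test was 0.670, with 0.00201 to 0.999 over the alternatives, and the lowest came from counts without scaling for library size. Without mouse 4 the log2 fold change was -0.10.

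Cyp2d11 and Cyp2d34 were at or near 0. Cyp2d11 (ENSMUSG00000068085, chr15:82389154-82394022, minus strand) had 7 and 8 counts in mice 1 and 2, and 12 and 13 counts in mice 3 and 4, and it did not pass the filter on low counts and was not tested. Its levels were 0.527 and 0.597 CPM in mice 1 and 2, and 0.837 and 0.690 CPM in mice 3 and 4, so both libraries labelled HuR hKO were higher, while the exact Poisson intervals of its 4 counts overlapped, from 2.81 to 14.4 in mouse 1 and from 6.92 to 22.2 in mouse 4. Cyp2d34 (ENSMUSG00000094559, chr15:82615965-82620946, minus strand) had 0 counts in every library, which allows a level of up to 0.159 to 0.226 CPM at a floor of 3 counts.

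The starts of 5 members are in the RefSeq table of promoters (build GRCm38.p6). They are shown because Cyp2d9 and Cyp2d11, whose starts are much alike, had counts of very different size. Each window has 60 bases, all before the annotated start, and is written 5′ to 3′ on the gene's strand. Capitals mark the motifs ACAAAGNGC and TATAAGG, which were chosen after the sequences were seen, were searched on both strands and do not overlap. Cyp2d11 had a further TATAAGG on the opposite strand at bases -19 to -13, outside its window. The TATAAGG shown is at bases -41 to -35 in Cyp2d11 and at -26 to -20 in Cyp2d9.
Cyp2d9 (chr15:82452306-82452365, plus strand): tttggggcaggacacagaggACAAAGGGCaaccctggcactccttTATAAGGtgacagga
Cyp2d11 (chr15:82394049-82394108, minus strand): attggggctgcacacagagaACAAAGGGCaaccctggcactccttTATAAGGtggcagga
Cyp2d10 (chr15:82407209-82407268, minus strand): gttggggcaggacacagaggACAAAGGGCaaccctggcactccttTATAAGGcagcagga
Cyp2d40 (chr15:82764197-82764256, minus strand): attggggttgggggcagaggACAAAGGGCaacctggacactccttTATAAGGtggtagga
Cyp2d26 (chr15:82794265-82794324, minus strand): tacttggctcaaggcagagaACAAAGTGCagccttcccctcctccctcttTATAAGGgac
Both motifs were in all 5 of these promoters. Among the 32851 promoters of the table, which cover 250 bases before to 50 after each start, 1.06% held ACAAAGNGC and 2.17% held TATAAGG. A match of letters is a description and not a binding site. Over the windows, compared without gaps, Cyp2d9 was identical to Cyp2d10 at 93.3% of positions, to Cyp2d11 at 91.7% and to Cyp2d40 at 81.7%. It was identical to Cyp2d26 at only 45% of positions. Over the whole promoters, Cyp2d9 and Cyp2d11 were 94.0% identical, yet Cyp2d9 had 936 to 1173 CPM per kb and Cyp2d11 no more than 0.527. Cyp2d40, the member that was lower, had both motifs, as did Cyp2d9, Cyp2d10 and Cyp2d26, whose groups overlapped. In Cyp2d40 both lay farther from the annotated start. TATAAGG was at bases -89 to -83 in Cyp2d40, at -26 to -20 in Cyp2d9 and at -29 to -23 in Cyp2d10 and Cyp2d26. Whether this distance matters was not tested. Cyp2d12, Cyp2d22 and Cyp2d34 have no entry in the table.

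Reads from one member can match another, and the treatment of such reads is not given in the sources used here. The coding stretch around the cysteine that holds the heme iron, the most conserved part of a P450 enzyme, shows how close the members are. It is given for 3 members as 45 coding bases, with the cysteine codon in capitals, and it spans a junction of the last 2 exons in each, so the coordinates (GRCm38) include an intron.
Cyp2d9 (chr15:82456451-82456595, plus strand): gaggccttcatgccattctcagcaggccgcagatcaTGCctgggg
Cyp2d12 (chr15:82559038-82559182, plus strand): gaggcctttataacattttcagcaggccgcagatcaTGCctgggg
Cyp2d40 (chr15:82760065-82760209, minus strand): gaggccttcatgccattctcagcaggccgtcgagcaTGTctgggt
The stretch of Cyp2d22 and that of Cyp2d26 had 0 differences from that of Cyp2d9. Cyp2d12 differed from it at 4 of the 45 bases and Cyp2d40 at 5.

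Over whole coding sequences, Cyp2d9, Cyp2d10, Cyp2d11 and Cyp2d12 were 90.7% to 94.7% identical to each other, and Cyp2d22 was 79.0% to 81.2% identical to these 4. The share of a transcript's 100-base windows found without a mismatch in a transcript of another gene was 14.9% for Cyp2d10, 12.2% for Cyp2d11, 9.86% for Cyp2d9 and 3.79% for Cyp2d12. It was 0.375% for Cyp2d26, 0.225% for Cyp2d22 and 0% for Cyp2d40. With 50-base windows the shares were 6.14% for Cyp2d22 and 24.2% for Cyp2d40. The values of Cyp2d9, Cyp2d10, Cyp2d11 and Cyp2d12 are therefore less certain than those of Cyp2d22, and those of Cyp2d40 depend on the read length, which is not given in the sources used here.

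The members lie in a cluster of 424 kb on chromosome 15, with Cyp2d22 at the low end and Cyp2d26 at the high end. Cyp2d22 and Cyp2d40, whose groups did not overlap, start 389 kb apart, and the abundant Cyp2d26 lies 25.9 kb beyond Cyp2d40. Within the cluster and 250 kb on each side, 55 other genes are annotated, of which 34 were matched to the table and 10 were tested. Of these neighbours 4 were higher and 6 lower in fold change, 0 passed the study's threshold, and the median log2 fold change was -0.02. At an unadjusted p-value under 0.05, 1 neighbour was lower, against 3.39% of all genes tested. This was the pseudogene Cyp2d37-ps, which lies between Cyp2d34 and Cyp2d40 and was named after its values were seen. It had 168 and 192 counts in mice 1 and 2, and 130 and 188 in mice 3 and 4, with a log2 fold change of -0.50 ± 0.171 (SE) and an adjusted p-value of 0.567 in edgeR's test.

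**Figure D4:**
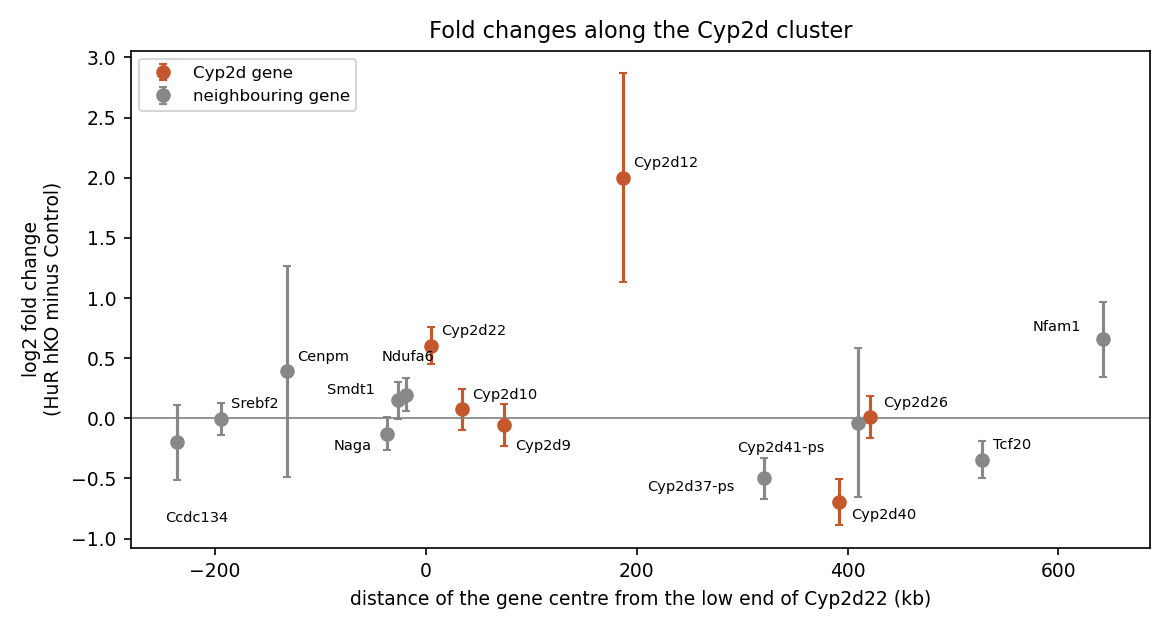
The log2 fold change (HuR hKO minus Control) of the Cyp2d genes tested and of 10 neighbouring genes, against the distance of the gene's centre from the low end of Cyp2d22 in kb, with bars of 1 standard error. Cyp2d22 at 0.60 is at the low end of the cluster, Cyp2d40 at -0.70 is the last member before Cyp2d26 at the high end, and Cyp2d10, Cyp2d9 and Cyp2d26 lie between -0.06 and 0.08.

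The partners that P450 enzymes need were described next. Of 17 genes for electron transfer to P450 enzymes and for heme synthesis and breakdown, 17 were tested, 10 were higher and 7 lower in fold change, and 0 had an unadjusted p-value under 0.05. Their median log2 fold change was 0.02, and that of the Cyp2d genes was 0.04. Of 21 transcription factors that regulate liver P450 genes, such as Hnf4a and Cebpa, 9 were higher and 12 lower, 0 passed the study's threshold, and the median was -0.06. At an unadjusted p-value under 0.05, 1 of them was higher (Ppara, with a log2 fold change of 0.46), against 4.04% of all genes tested. At the same p-value 1 was lower (Foxa1, with -0.80), against 3.39%. Both were named after their values were seen.

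Growth hormone sets the male pattern of liver P450 genes, and Cyp2d9 is among its known targets. Of 10 genes of growth hormone signalling, 9 were tested, 3 were higher and 6 lower, and the median log2 fold change was -0.20. Past the study's threshold 1 of the 9 was lower, against 0.915% of all genes tested. Bcl6, a repressor in this pathway, passed the study's threshold as lower, with 131 and 920 counts in mice 1 and 2, and 122 and 288 counts in mice 3 and 4. Its groups overlapped, and mouse 2 stood apart from the other libraries. Its log2 fold change was -1.71 ± 0.708 (SE), and edgeR's adjusted p-value was 0.643.

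Other liver genes known for a higher level in males or in females were counted beside Cyp2d9. Of 16 male-biased genes 13 were lower in fold change. At an unadjusted p-value under 0.05, 7 were lower, against 3.39% of all genes tested, and 0 were higher, against 4.04%. At the study's threshold 2 were lower, against 0.915%, and 0 were higher, against 1.21%. The median log2 fold change was -0.44, while that of Cyp2d9 was -0.06. C6, a complement gene, had 2776 and 1941 counts in mice 1 and 2, and 1428 and 1490 in mice 3 and 4, with a log2 fold change of -0.99. Ugt2b38, a glucuronosyltransferase gene, had 173 and 179 counts against 104 and 80, with a log2 fold change of -1.21. Of 19 female-biased genes 8 were tested, and 7 of these were higher. At the study's threshold 5 were higher, against 1.21% of all genes tested, and 1 was lower, against 0.915%. The median log2 fold change of this list was 1.48, over tested genes only. Cyp2a4 had 11 and 7 counts in mice 1 and 2, and 403 and 200 counts in mice 3 and 4, with a log2 fold change of 4.81 ± 0.567 (SE) and an adjusted p-value of 0.0636 in edgeR's test. Its adjusted p was the smallest of both lists, and those of C6 and Ugt2b38 were 0.200 and 0.223 in the same edgeR test. Without mouse 1 the median of the male-biased list was -0.18 and that of the growth hormone list -0.05, and without mouse 4 the median of the female-biased list was 0.79. Without scaling for library size the median of all genes tested was 0.31, and that of the growth hormone list turned to 0.11, while the male-biased median was -0.13. The female-biased list shares the tested genes Cyp2a4, Cyp2b9, Cyp2b13 and Cyp2c40 with the P450 subfamilies below, and also some genes that were not tested.

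Other P450 subfamilies of the liver were set beside Cyp2d without a test of the difference between them. Past the study's threshold, 1.21% of all genes tested were higher and 0.915% lower. All 4 Cyp2a genes were higher in fold change, 2 of them past the study's threshold, with a median of 1.60. Cyp2a4 was 1 of these, and Cyp2a22 had 27 and 65 counts in mice 1 and 2, and 176 and 564 in mice 3 and 4, with a log2 fold change of 2.62. Of 5 Cyp2b genes 3 were tested and all 3 were higher, with a median of 1.52. Cyp2b9 had 86 and 119 counts against 240 and 513, with a log2 fold change of 1.52, and Cyp2b13 had 9 and 14 counts against 56 and 98, with 2.40. Of 15 Cyp2c genes 12 were tested, 5 were higher and 7 lower, and the median was -0.07. Cyp2c40 was lower past the study's threshold, with 23 and 30 counts against 5 and 21 and a log2 fold change of -1.38. Of 9 Cyp3a genes 4 were tested, 0 passed the threshold, and the median was 0.02. The Cyp2a median was 0.57 with at least 10 counts in every sample, a filter that Cyp2a4 did not pass, and 1.04 without mouse 4, and that of Cyp2c ranged from -0.44 to 0.17 when single mice were left out.

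**Figure D5:**
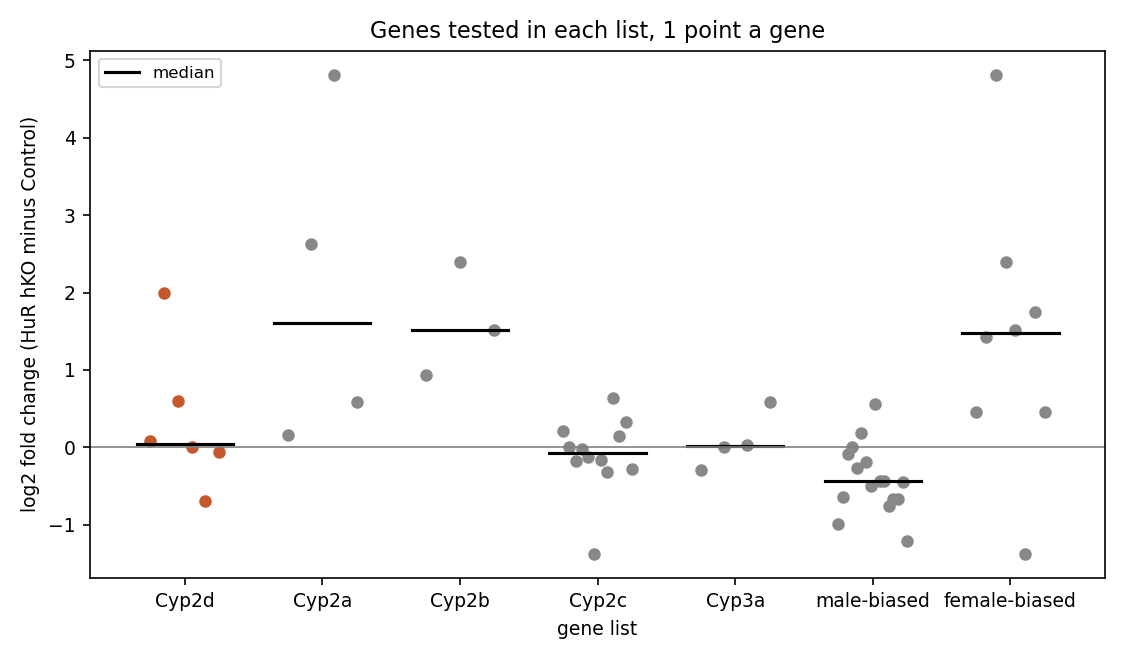
The log2 fold change (HuR hKO minus Control) of each gene tested in the Cyp2d subfamily, in 4 other P450 subfamilies and in the male-biased and female-biased lists, with a line at each list's median. The Cyp2d median is 0.04 and those of Cyp2a, Cyp2b and the female-biased list are 1.60, 1.52 and 1.48, and several genes stand in more than 1 list.

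The make-up of the livers was read from marker genes. Of all genes tested, 4.04% were higher and 3.39% lower at an unadjusted p-value under 0.05 in edgeR's test. Of 10 hepatocyte markers 0 had an unadjusted p-value under 0.05, and their summed level was 80440 and 80150 CPM in Control mice 1 and 2 and 75620 and 87640 CPM in the pair labelled HuR hKO. This sum ordered the libraries much as the summed Cyp2d level did, with mouse 3 the lowest and mouse 4 the highest. Of 6 erythroid markers 5 were tested, all 5 were higher in fold change and 3 had an unadjusted p-value under 0.05, with a summed level of 363 and 450.5 CPM against 488.5 and 711 CPM. Of 9 stellate cell markers 8 were higher and 2 had an unadjusted p-value under 0.05, with 206 to 214 CPM against 219 to 285 CPM. Of 10 Kupffer cell and macrophage markers 0 had an unadjusted p-value under 0.05, with 255 to 260 CPM against 274 to 290 CPM, and of 8 endothelial markers 0, with 214 to 244 CPM against 242 to 277 CPM. Of 6 cholangiocyte markers 4 were tested, 2 were higher and 2 lower in fold change, with a median log2 fold change of -0.23. Without mouse 1 this median was 0.63. Only Spp1, higher with a log2 fold change of 0.51, was under 0.05 in unadjusted p-value in edgeR's test. Spp1 made up most of the summed level, which was 27.6 to 52.8 CPM against 39.6 to 49.8 CPM. Krt19 had 162 and 5 counts in mice 1 and 2, and 7 and 34 in mice 3 and 4, so mouse 1 stood apart. Spp1 and Krt19 were named after their values were seen. Neutrophil and monocyte markers summed to at most 3.42 CPM, lymphocyte markers to at most 6.64 CPM and pancreas markers to at most 4.06 CPM in a library. Erythroid, stellate, and Kupffer cell and macrophage sums were higher in both libraries labelled HuR hKO, as Cyp2d22 was, and their part in its difference was not tested.

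Genes with a pattern most like that of a member were found by the root mean square distance of log2 CPM, centred on each gene's mean, over the 4 libraries and 9266 genes with a mean of at least 5 CPM. For Cyp2d9, the most abundant member, the 3 nearest were Foxo3, Mettl23 and Crybg1, with distances of 0.0138, 0.0149 and 0.0173. Foxo3 had 66.5 and 68.7 CPM in the Control mice, and 56.8 and 72.9 CPM in the pair labelled HuR hKO, the same order of libraries as Cyp2d9. For Cyp2d12, the member with the highest absolute log2 fold change tested, the nearest were Slc16a5, Rhbg and 9030619P08Rik, with distances of 0.558, 0.562 and 0.607. Slc16a5 had 3.76 and 10.2 CPM in the Control mice, and 8.51 and 22.5 CPM in the pair labelled HuR hKO, and it too had its highest value in mouse 4. Over 4 libraries such likeness is a description.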

How the data were processed

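Total liver RNA of 4 mice was sequenced, and the authors deposited whole-number counts per Ensembl gene in 1 table, without normalization. The submitters' processing notes name RSEM and GRCm38. The aligner, the role of RSEM, the use of strand and the treatment of reads that match several genes are not given in the sources used here, although reads of close paralogs depend on the last. All 4 columns were matched to a mouse, and 0 were left without one. Symbols came from a table of Ensembl identifiers (46005 of 46603 matched) and coordinates from GENCODE M21.

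Counts were filtered with edgeR 4.0.16 in R 4.3.3 (a minimum of 10 counts and a total of 15), scaled with TMM factors (0.957 to 1.04) and tested with the quasi-likelihood test, with Benjamini-Hochberg adjustment over 13001 genes. The SD beside a mean is that of 2 mice. Sequences were read with python 3.11.15 and aligned with biopython 1.88. The tests were tested on simulated counts.

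The members, the lists and the alternatives were chosen with earlier results of these data known. Named besides the members were Elavl1, up to 4 genes a list with the smallest unadjusted p among those past the study's threshold, and the 3 nearest genes. Alternatives were DESeq2's size factors, upper quartile factors, no scaling, no filter, a minimum of 10 counts in all 4 samples, DESeq2 1.42.0 (Wald test), limma-voom (3.58.1) and leaving out each mouse. Genes said to be named after their values were seen fall outside this rule.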

Additional observations from a re-analysis of the deposited data

How the results depend on the processing

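Of the 6 log2 fold changes, those of Cyp2d22 and Cyp2d40 kept their direction under all 11 alternatives. No scaling for library size turned Cyp2d9 to 0.28, no filter on low counts turned Cyp2d26 to -0.00155 and limma-voom turned it to -0.00371. With each mouse left out in turn, Cyp2d9 lay between -0.23 and 0.079, Cyp2d10 between -0.11 and 0.23, Cyp2d26 between -0.19 and 0.17, and Cyp2d12 between -0.10 and 2.75. Leaving out mouse 4 turned Cyp2d10, Cyp2d12 and Cyp2d26, leaving out mouse 3 turned Cyp2d9, and leaving out mouse 1 turned Cyp2d26 to -0.071.

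The number of Cyp2d genes with an adjusted p-value under 0.05 was 0 in edgeR's test and 1 without scaling (Cyp2d12), without a filter (Cyp2d40) and with the DESeq2 Wald test (Cyp2d22). Over all genes tested these settings made 155, 161 and 85 calls, against 3. The number past the study's threshold was 1, and it was 0 with DESeq2's size factors, upper quartile factors, at least 10 counts in every sample (which removed Cyp2d12) and limma-voom, 2 without scaling, and 0 to 1 with a mouse left out. The number whose groups did not overlap was 2, and it was 1 without scaling and 2 to 6 with a mouse left out, where a group of 1 mouse can overlap less. The median log2 fold change of the Cyp2d genes was 0.38 without scaling, where that of all genes was 0.31, and -0.15 to 0.20 with a mouse left out. The log2 ratio of the summed level was 0.03, 0.36 without scaling and -0.15 to 0.17 with a mouse left out. Elavl1 stayed between 0.32 and 0.72 in all alternatives. Where no cause is shown by the setting itself, the cause was not tested. With a mouse left out, the lone mouse of a group is assumed to vary like the other group. The medians of the other lists were recomputed under the same alternatives, a choice made after seeing the data. No paired analysis was possible because the groups compared share no replicate numbers (mice 1 and 2 against mice 3 and 4).

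Depth limits the low members: Cyp2d34, at 0 counts, and Cyp2d11, at 7 to 13 counts a library, did not pass the filter and have no test.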
